A study of Mus musculus with 20 samples.

Results

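The 10 genes described here encode the machinery that loads peptides onto major histocompatibility complex (MHC) class II molecules in the mouse colon. They are H2-Aa, H2-Ab1, H2-Eb1, H2-DMa, H2-DMb1, H2-DMb2, H2-Oa, H2-Ob, Cd74 and Ciita. They were picked by name and function out of 32991 annotated genes with values in these data. The level of each gene in a mouse was the sum of the FPKM (fragments per kilobase of transcript, scaled to the mapped fragments of the library) of its annotated transcripts, so levels can be compared between genes. All 10 genes had rows in the files, and all 10 passed the filter on low values used for the group tests (0.5 FPKM or more in at least 5 of the 10 mice compared).

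Colon RNA was sequenced from 20 male C57BL/6 mice in 4 groups of 5. Control mice received distilled water by gavage for 91 days, and PZH mice received Pien Tze Huang, a traditional Chinese medicine formula, at 250 mg/kg/d over the same time. Model mice (the AOM/DSS group) received 1 injection of azoxymethane, a carcinogen, at 12.5 mg/kg and repeated cycles of 2% dextran sulfate sodium in the drinking water, which injures the colon lining, together with the water gavage. Model + PZH mice (the PZH + AOM/DSS group) received azoxymethane, dextran sulfate sodium and PZH. Whole colon tissue holds many cell types, so fewer cells of a type and less RNA per cell cannot be told apart in any value below. One protocol field of the labels names the abdominal aorta as the dissected tissue, while the tissue label says colon. Of 14 colon epithelium markers, 12 were at 1 FPKM or more in every mouse, among them Krt19 (950.1 FPKM in the lowest mouse) and Cdx1 (109.7 FPKM in the lowest mouse). The exceptions were Epcam, listed at 0 in 13 of the 20 mice, and Krt8, below 1 FPKM in 8.

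MHC class II molecules are pairs of an alpha and a beta chain that carry peptides from endosomes to the cell surface, where CD4 T cells read them. B cells, dendritic cells and macrophages make them constitutively, and intestinal epithelial cells can make them under interferon gamma. The invariant chain blocks the peptide groove until the endosome, H2-DM then swaps in peptides, H2-DO restrains H2-DM, and the coactivator CIITA switches on the whole set through a shared promoter module of an X box and a Y box.

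That module could be read in the promoters of several of the genes, and the stretches are shown here because the later results turn on which of these genes moved together. RefSeq promoter windows (GRCm38.p6, 250 bases before to 50 bases after the gene start) were given for 7 of the 10 genes, and all of these 7 lie on chromosome 17. The letters searched on both strands were GNAAC, found in X boxes, and GATTGG, the Y box bound by NF-Y, which do not overlap one another. In each line below, capitals mark these letters, and the sequence runs 5′ to 3′ on the strand of the gene.
H2-Aa: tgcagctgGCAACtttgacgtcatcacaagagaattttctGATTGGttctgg
H2-Eb1: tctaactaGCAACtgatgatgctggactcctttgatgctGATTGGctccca
H2-DMb1: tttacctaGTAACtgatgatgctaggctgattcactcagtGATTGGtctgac
H2-DMb2: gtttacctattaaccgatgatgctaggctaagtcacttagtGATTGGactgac
H2-Oa: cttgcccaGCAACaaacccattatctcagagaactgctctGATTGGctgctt
H2-Ob: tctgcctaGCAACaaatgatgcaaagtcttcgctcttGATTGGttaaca

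The stretches lie at chr17:34287861-34287912 for H2-Aa (minus strand), and on the plus strand at chr17:34305768-34305818 for H2-Eb1, chr17:34153089-34153140 for H2-DMb1, chr17:34145117-34145169 for H2-DMb2, chr17:34092295-34092346 for H2-Oa and chr17:34238810-34238858 for H2-Ob. In these stretches GATTGG began between 44 bases (H2-Oa) and 91 bases (H2-DMb2) before the annotated gene start. GNAAC followed by GATTGG at a start-to-start distance of 25 to 40 bases was present in 5 of the 7 genes with a window, at distances of 29 bases (H2-Ob) to 32 bases (H2-Aa, H2-DMb1 and H2-Oa). The same pair occurred in 0.92% of all 32851 promoter windows, GATTGG alone in 16.11% and GNAAC alone in 84.85%. The spacing was set after these sequences had been read, so the shares describe the windows and test nothing. GATTGG alone and GNAAC alone each occurred, on 1 strand or the other, in windows of all 7 genes, H2-DMa included. The 2 windows of H2-DMa lacked the pair, and no stretch of that gene is shown. In H2-DMb2 the letters at the X box position were not GNAAC.

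The genes covered a wide range of levels. Cd74, the invariant chain, was the most abundant, with a mean of 597 FPKM over the 20 mice and a range of 301 to 1434 FPKM. The peptide-binding chains followed, with means of 187 FPKM for H2-Aa (alpha chain of the A molecule), 182 FPKM for H2-Ab1 (its beta chain) and 172 FPKM for H2-Eb1 (beta chain of the E molecule). The peptide editor H2-DM stood far lower, at 11.9 FPKM for its alpha chain H2-DMa, 14.3 FPKM for H2-DMb1 and 7.12 FPKM for H2-DMb2. The regulator Ciita had a mean of 3.23 FPKM, and the chains of the H2-DM inhibitor, H2-Oa and H2-Ob, had means of 2.79 and 2.41 FPKM.

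Some neighbours in this order could not be separated within mice. Cd74 exceeded H2-Aa in 20 of 20 mice and H2-Eb1 exceeded H2-DMb1 in 20 of 20, whereas H2-Aa exceeded H2-Ab1 in 12, Ciita exceeded H2-Oa in 11, and H2-Oa exceeded H2-Ob in 10. The alpha chain partner of H2-Eb1 is defective in C57BL/6 mice, and its row, H2-Ea-ps, was listed at 0 in 18 of 20 mice with 0.269 FPKM at most. The beta-chain gene H2-Eb1 was read at 91.6 to 399.8 FPKM in the same mice, and its relative H2-Eb2 at 0.265 to 5.61 FPKM. The depth limits the least abundant members. About 7 fragments stood behind the H2-Oa value and about 6 behind the H2-Ob value of the lowest mouse, Control 17, whereas the lowest mouse for Cd74 had about 6258 fragments.

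**Figure D1:**
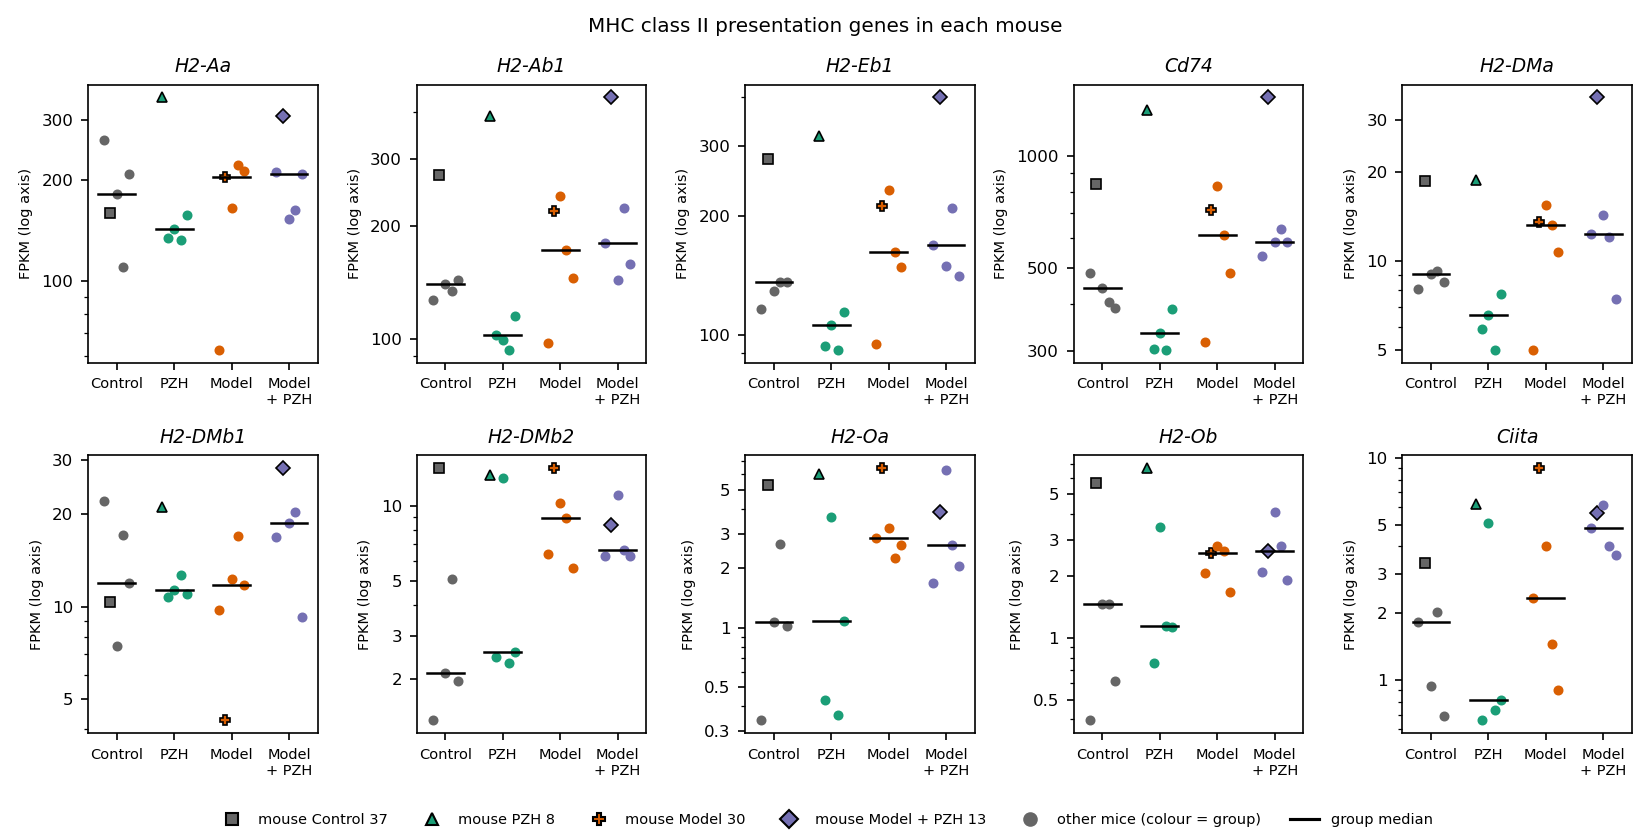
FPKM of each of the 10 genes (log axis) in the 20 mice, by group, with 1 point per mouse, a line at the group median and own symbols for 4 mice. Control 37, PZH 8 and Model + PZH 13 stand above their groups for H2-Ab1, H2-Eb1, Cd74 and H2-DMa, and the groups overlap in every panel except Control against Model + PZH for Ciita.

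H2-Ab1 shows how the abundant genes were spread. In Control mice 17, 37, 41, 48 and 50 it was at 127, 273, 140, 135 and 144 FPKM, and in PZH mice 8, 14, 27, 46 and 53 at 391, 103, 99.3, 93.7 and 115 FPKM. In Model mice 23, 30, 33, 44 and 52 it was at 97.6, 218, 240, 172 and 145 FPKM, and in Model + PZH mice 2, 13, 15, 35 and 36 at 180, 439, 144, 223 and 159 FPKM. A single mouse stood far above the rest in the Control, PZH and Model + PZH groups, and all 4 groups overlapped. The other 4 PZH mice lay below all 5 Control mice.

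Cd74 followed the same mice. In Control it was at 486, 840, 443, 406 and 390 FPKM, and in PZH at 1324, 303, 335, 301 and 389 FPKM, in the same mouse order. In Model it was at 316, 715, 829, 611 and 483 FPKM, and in Model + PZH at 537, 1434, 585, 634 and 585 FPKM. Model + PZH 13, PZH 8 and Control 37 were the highest mice of all 20, in that order, for Cd74, H2-Ab1 and H2-Eb1 alike. PZH 8 was the highest of its group for all 10 genes, Control 37 for 8 and Model + PZH 13 for 6.

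The comparison of Model with Control asked which genes differed with azoxymethane and dextran sulfate sodium. None of the 10 genes passed an adjusted p under 0.05 in limma, against 23.6% of the 15812 genes tested (16.4% higher and 7.23% lower in Model). One of the 10, H2-DMb2, had an unadjusted p under 0.05, against 36% of all genes. Log2 fold changes, on the log2(FPKM + 1) scale that understates changes of low genes, were above 0 for 8 of the 10 (5 after median-of-ratios scaling, which took H2-Ab1, H2-Eb1 and H2-DMa just below 0), against 60% of all genes, with a median of 0.15 against 0.09. H2-Ab1 was at 175 ± 57.1 FPKM (SD, n = 5) in Model and 164 ± 61.5 FPKM (SD, n = 5) in Control, a log2 fold change of 0.09 with a 95% interval of −0.51 to 0.69. Cd74 had a log2 fold change of 0.19, with an interval of −0.43 to 0.81. The intervals of these abundant genes leave room for a change of either sign.

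H2-DMb2, a beta chain of the peptide editor, had the largest difference of the set. It was at 1.36, 14.3, 2.11, 5.09 and 1.98 FPKM in Control mice 17, 37, 41, 48 and 50, and at 6.41, 14.2, 10.2, 8.95 and 5.63 FPKM in Model mice 23, 30, 33, 44 and 52. All Model mice lay above all Control mice but Control 37, which was the highest of these 10. The log2 fold change was 1.07 (SE 0.47, limma adjusted p = 0.127). Without Control 37 the log2 fold change was 1.51 (limma adjusted p = 0.00921), and H2-Oa (1.01, limma adjusted p = 0.0465) and H2-Ob (0.79, limma adjusted p = 0.0215) passed as well, so that 3 of the 10 genes were higher in Model, against 15.9% of all 15645 genes tested without that mouse. With all mice in, H2-Oa was at 3.48 ± 1.71 FPKM (SD, n = 5) in Model and 2.07 ± 1.98 FPKM (SD, n = 5) in Control, and H2-Ob at 2.36 ± 0.471 and 1.92 ± 2.16 FPKM. H2-DMb1, a near-identical neighbour that can share reads with H2-DMb2, had a log2 fold change of −0.32 (interval −1.08 to 0.45). H2-DMb1 and H2-DMb2 summed were at 20.1 ± 4.06 FPKM (SD, n = 5) in Model and 18.8 ± 6.66 FPKM (SD, n = 5) in Control. A difference in this sum was not tested.

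Summed B cell markers, like H2-DMb2, H2-Oa and H2-Ob, were highest in Control 37 among the Control mice. The summed FPKM of 11 B cell markers (among them Ms4a1, Cd79a and Cd79b) ran from 7.42 to 103 in Control, with the highest value in Control 37 and the next at 28.1, and from 40.5 to 106 in Model. All 11 had a log2 fold change above 0 in Model against Control, against 60% of all genes. The limma adjusted threshold was passed by 2 of the 11 (18.2%), near the 16.4% of all genes higher in Model. Among them was Pax5 (0.92, limma adjusted p = 0.0495), a B cell transcription factor. Markers of other cell types differed too. Of the tested markers, 3 of 7 for dendritic cells (42.9%), 5 of 12 for macrophages and monocytes (41.7%) and 5 of 8 for T cells (62.5%) were higher in Model, against 16.4% of all genes. Lower in Model were 4 of 13 for colon epithelium (30.8%) and 8 of 8 for smooth muscle (100%), against 7.23% of all genes. The part of tissue makeup in the values of the 10 genes was not tested.

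**Figure D2:**
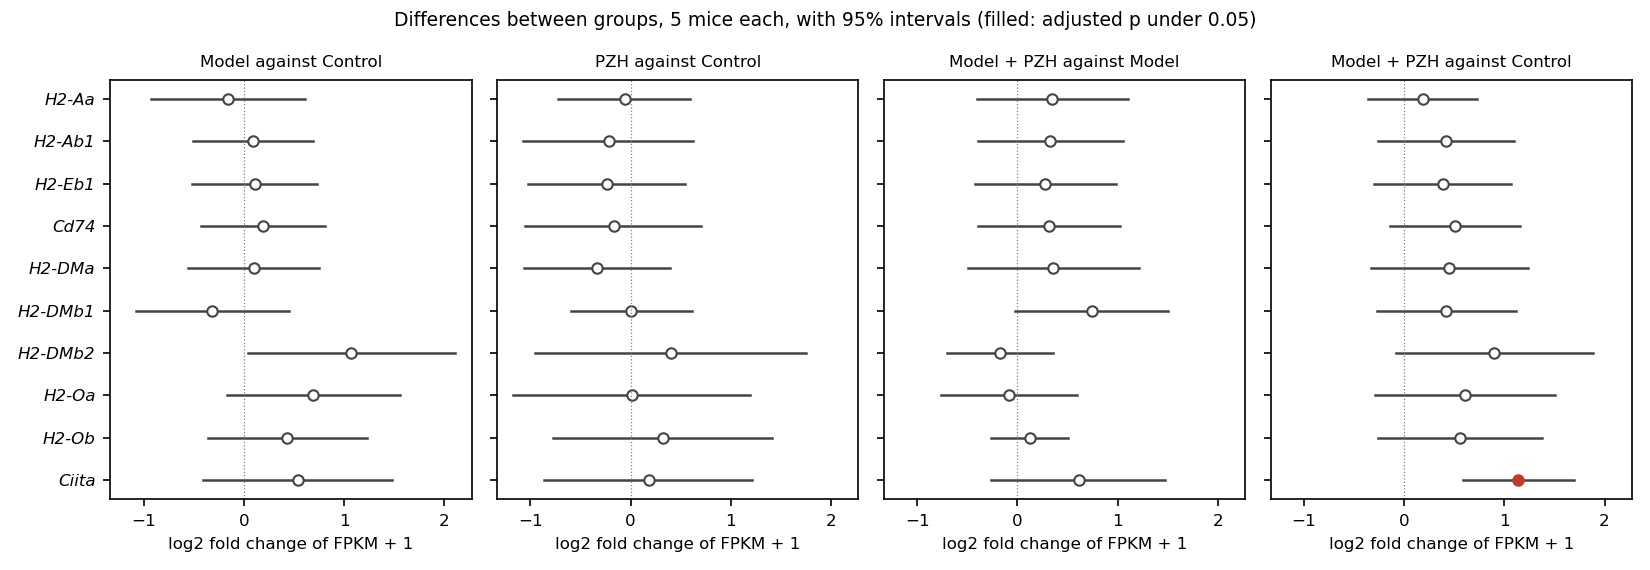
Log2 fold change of FPKM + 1 (points) with 95% intervals (bars) for the 10 genes in 4 pairwise comparisons of 5 mice with 5, filled where the adjusted p was under 0.05. Ciita in Model + PZH against Control is the filled point, at 1.14, and H2-DMb2 in Model against Control, at 1.07, has an interval of 0.04 to 2.11.

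The comparison of PZH with Control addressed the formula in mice without tumour induction. None of the 10 genes passed the adjusted threshold, against 0.00645% of 15506 genes tested, and none had an unadjusted p under 0.05, against 8.84% of all genes. Log2 fold changes were above 0 for 5 of the 10 (3 after median-of-ratios scaling), against 51.3% of all genes, with a median of −0.03 against 0.01 for all genes. They ran from −0.34 (H2-DMa, interval −1.06 to 0.39) to 0.40 (H2-DMb2, interval −0.95 to 1.75). PZH 8 decided these values. Without it 1 of the 10 genes had a log2 fold change above 0, against 50% of all genes, and an unadjusted p under 0.05 was met by 4 of the 10, against 8.97% of all genes. None of the 10 passed the adjusted threshold in limma without PZH 8 (lowest adjusted p = 0.501), against 0.0131% of all genes.

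The comparison of Model + PZH with Model addressed the formula during tumour induction. None of the 10 genes passed the adjusted threshold, against 0.00629% of 15888 genes tested, and none had an unadjusted p under 0.05, against 11.7% of all genes. Log2 fold changes were above 0 for 8 of the 10, against 43.4% of all genes, with a median of 0.32 against −0.04. Without Model + PZH 13 they were still above 0 for 8 of the 10, against 44.9% of all genes. Those of H2-Ab1, H2-Eb1, H2-DMa and Cd74 fell from 0.33, 0.28, 0.36 and 0.32 to 0.06, 0.03, 0.04 and 0.06 without that mouse. H2-DMb1, the other beta chain of the peptide editor, came nearest to the threshold. It was at 9.79, 4.27, 12.3, 17.1 and 11.8 FPKM in Model mice 23, 30, 33, 44 and 52, and at 16.9, 28.4, 18.8, 20.4 and 9.28 FPKM in Model + PZH mice 2, 13, 15, 35 and 36. The groups overlapped, and the log2 fold change was 0.74 (SE 0.34, limma adjusted p = 0.435). H2-DMb1 and H2-DMb2 summed were at 26.5 ± 7.86 FPKM (SD, n = 5) in Model + PZH and 20.1 ± 4.06 FPKM (SD, n = 5) in Model, a difference that was not tested. The test of whether the difference with azoxymethane and dextran sulfate sodium changed with PZH gave 0 of 10 genes at an adjusted p under 0.05, against 0.0118% of 16936 genes, and 0 of 10 at an unadjusted p under 0.05, against 10.3%.

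Ciita, the master regulator of the set, was higher in Model + PZH than in Control. It was at 1.83, 3.37, 0.945, 2.04 and 0.691 FPKM in Control mice 17, 37, 41, 48 and 50, and at 4.83, 5.66, 6.17, 4.00 and 3.67 FPKM in Model + PZH mice 2, 13, 15, 35 and 36. Every Model + PZH mouse lay above every Control mouse. The means were 4.87 ± 1.06 FPKM (SD, n = 5) and 1.77 ± 1.06 FPKM (SD, n = 5), a log2 fold change of 1.14 (SE 0.25, limma adjusted p = 0.0444). Ciita was the only one of the 10 genes to pass in this comparison, against 2.42% of 15616 genes tested (1.55% higher in Model + PZH). It was also the only one of the 10 without overlap between the groups, against 4.18% of all genes that lay higher without overlap. All 10 genes had a log2 fold change above 0, against 58% of all genes, with a median of 0.48 against 0.06. Markers of cell types were compared between the same groups. All 11 B cell markers (median log2 fold change 0.74) and all 8 T cell markers (median 0.66) had a log2 fold change above 0, against 58% of all genes. None of either passed the adjusted threshold in limma. An unadjusted p under 0.05 was met by 2 of the 11 B cell and 6 of the 8 T cell markers, against 20.9% of all genes. Of the tested markers, 2 of 8 for dendritic cells (25%) and 1 of 12 for macrophages and monocytes (8.3%) were higher, against 1.55% of all genes. For smooth muscle 1 of 8 was lower (12.5%), where 2.42% of all genes passed in either direction. The smooth muscle median was −1.17, with 7 of the 8 lower at an unadjusted p under 0.05, against 20.9% of all genes in either direction. The part of these cell types in the values of the 10 genes was not tested. The Ciita call sat at the edge of the threshold. Leaving out any 1 of the other 9 mice moved its limma adjusted p to 0.0568 to 0.116, and without Control 37 it was 0.0242, with H2-DMb2 passing beside it (log2 fold change 1.33, limma adjusted p = 0.0411), so that 2 of the 10 passed, against 2.27% of all genes.

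In the groups between, Ciita was widely spread. It was at 6.20, 0.659, 5.10, 0.732 and 0.816 FPKM in PZH mice 8, 14, 27, 46 and 53, and at 2.34, 9.05, 4.03, 1.46 and 0.901 FPKM in Model mice 23, 30, 33, 44 and 52. Both groups held mice as low as the Control mice and mice as high as the Model + PZH mice. The transcript Ciita-201 (chr16:10488279-10528418 in GRCm38, plus strand, coding for 1078 residues) made up 53.8% of the gene's FPKM and was listed at 0 in 7 mice, which were Control 17 and 50, PZH 14, 46 and 53, and Model 44 and 52. In all 5 Model + PZH mice it was above 0, at 1.34 FPKM or more. The intron-retaining transcript Ciita-207 gave a further 17.5% of the gene's FPKM, with its highest value, 2.02 FPKM, in Model + PZH 13, and with protein-coding transcripts alone the Ciita difference had a limma adjusted p = 0.066.

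Several genes around Ciita in the pathway differed between Model and Control. A list of 34 further class II pathway genes, of which 32 were tested, had 11 higher (34.4%, against 16.4% of all genes) and 2 lower (6.25%, against 7.23%) in Model than in Control at a limma adjusted p under 0.05. In the interferon gamma branch, which induces Ciita, Socs1, a feedback inhibitor, and the kinase gene Jak2 were among the genes higher in Model, with log2 fold changes of 0.90 and 0.52. Socs1 was at 1.19 ± 0.71 FPKM (SD, n = 5) in Control, 1.51 ± 0.493 in PZH, 2.99 ± 0.708 in Model and 5.61 ± 2.74 in Model + PZH. Among the factors that hold CIITA at the promoter, Nfyb (0.71) and Rfx5 (0.65) were higher and Rfxank (−0.55) was lower in Model. Of the proteases and reductase that cut antigen and the invariant chain, the asparaginyl endopeptidase Lgmn (0.86) and cathepsin D, Ctsd (0.61), were higher and the thiol reductase Ifi30 (−0.59) was lower. The ubiquitin ligase March1, which removes class II molecules from the surface, was higher (0.87), and so were Cd86 (0.79), Cd4 (0.77) and Cd80 (0.59) at the contact with T cells.

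With PZH in the Model, 4 of the 32 tested genes of this list were higher than in Control at a limma adjusted p under 0.05 (12.5%, against 1.55% of all genes). None was lower. Among the 4 were Socs1 (log2 fold change 1.55, adjusted p = 0.0295), Cd4 (1.11, adjusted p = 0.0153) and Lgmn (0.67, adjusted p = 0.0322). At an unadjusted p under 0.05 the list had 10 genes higher and 2 lower, against 20.9% of all genes in either direction. Both comparisons share the Control mice. Against Model, none of the 32 genes passed the limma adjusted threshold, against 0.00629% of all genes. An unadjusted p under 0.05 was met by 5 of the 32, 3 higher and 2 lower, against 11.7% of all genes. Irf1 (0.56, limma adjusted p = 0.356) and Socs1 (0.65, limma adjusted p = 0.398) had log2 fold changes above 0, and the proteases Ctsl (−0.52, limma adjusted p = 0.356) and Ctsd (−0.48, limma adjusted p = 0.377) below 0. In PZH against Control, 0 of 31 tested genes passed in limma, against 0.00645% of all genes. An unadjusted p under 0.05 was met by 4 of the 31, against 8.84% of all genes. Of 13 class I presentation genes, Nlrc5, the class I counterpart of Ciita, was higher in Model (log2 fold change 1.29, limma adjusted p = 0.00283) and in Model + PZH (1.84, limma adjusted p = 0.013) than in Control. In Model the list also held Calr (0.49) and Pdia3 (0.50) higher and Tap2 (−0.51) lower. In that comparison 23.1% of the 13 were higher, against 16.4% of all genes, and 7.69% lower, against 7.23%.

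Within groups, 8 of the genes could be described as a pair of sets with close relations inside each, taken here on values centred on each group's mean of log2(FPKM + 1), so that group differences play no part. H2-Ab1 ran closely with H2-Eb1, Cd74 and H2-DMa over the 20 mice, with Pearson's r of 0.99, 0.97 and 0.92, Spearman's rho of 0.95, 0.84 and 0.76, and permutation p values, adjusted over the 55 relations computed, of 0.00018, 0.00018 and 0.00051 for r and 0.00027, 0.00128 and 0.00477 for rho. Leaving out the 2 mice farthest from the median of the partner gene left r at 0.98, 0.93 and 0.86. H2-DMb2 ran with H2-Oa, H2-Ob and Ciita, with r of 0.93, 0.93 and 0.83, rho of 0.89, 0.92 and 0.83, and 0.90, 0.88 and 0.81 for r without the 2 farthest mice. The adjusted permutation p values of these were 0.00018, 0.00018 and 0.00045 for r and 0.00055, 0.00082 and 0.00128 for rho.

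The sets were not separate. All 16 relations between a gene of the one set and a gene of the other had r above 0, from 0.50 to 0.67. All 16 had an adjusted permutation p under 0.05 for r and 6 of the 16 for rho. Without the 2 mice farthest from the median of 1 gene of the pair, r was 0.22 to 0.57. That gene was Cd74 in its relations with H2-DMb2, H2-Oa and H2-Ob (0.55, 0.46 and 0.57). In the other relations it was the gene of the H2-DMb2 set (0.22 to 0.40). H2-Aa ran with H2-Ab1, H2-Eb1, H2-DMa and Cd74 at r of 0.61 to 0.70 (adjusted permutation p of 0.0171 to 0.0219) and with the H2-DMb2 set at 0.11 to 0.21. H2-DMb1 had r of −0.04 to 0.37 with the other 9 genes, none past the threshold (adjusted permutation p of 0.174 or more). The division into sets was made after the values were seen and was not itself tested.

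**Figure D3:**
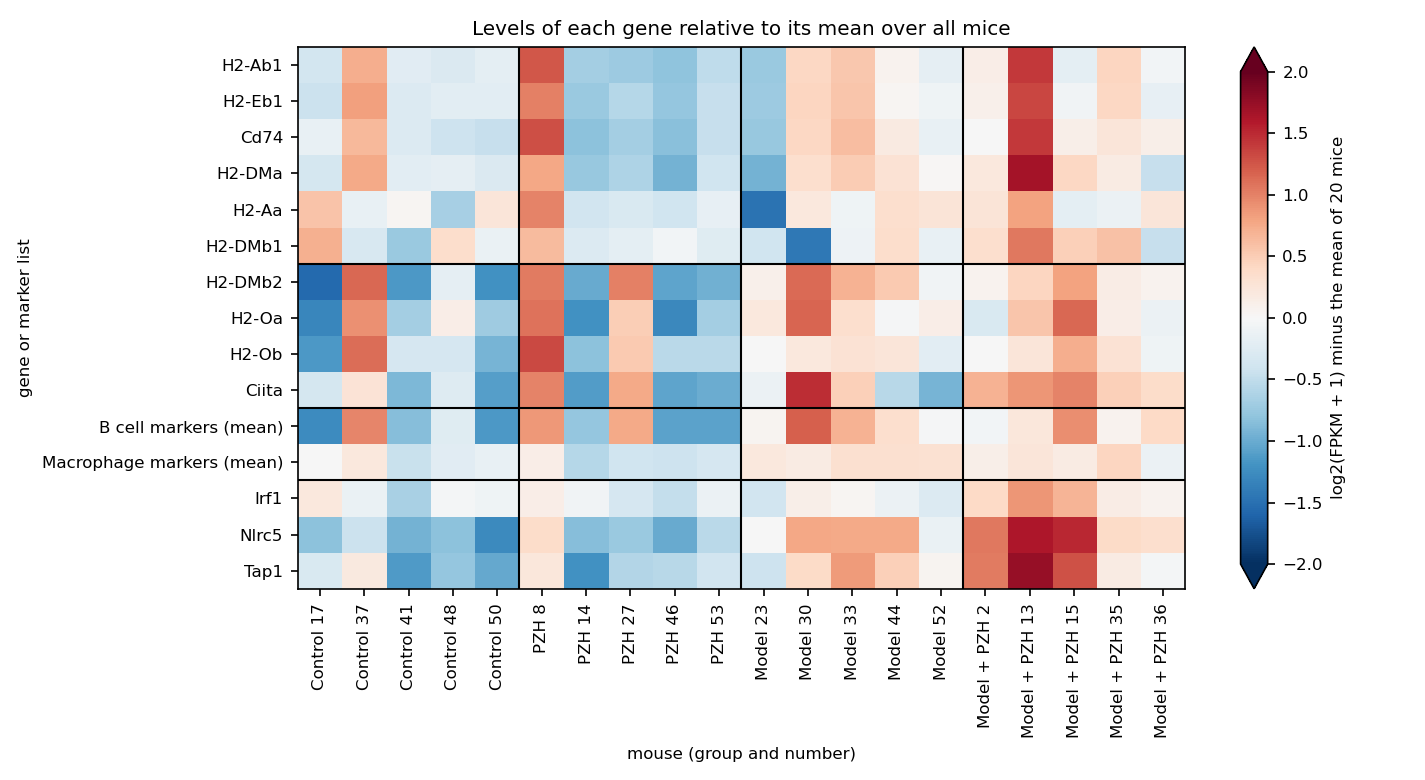
Log2(FPKM + 1) of the 10 genes, of the mean of the B cell and of the macrophage markers, and of 3 interferon-related genes in each mouse, minus the mean of the row over 20 mice (colours stop at 2 and −2). The first 4 rows are highest in Model + PZH 13, PZH 8 and Control 37, the H2-DMb2 to Ciita rows follow the B cell row, and the interferon rows are highest in Model + PZH 13, 15 and 2.

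The H2-DMb2 set ran with the B cell markers, and with markers of other immune cells as well. The centred level of H2-DMb2 had r = 0.98 and rho = 0.96 with the mean log2 level of the 11 B cell markers, and within Control, PZH, Model and Model + PZH alone r was 0.99, 0.99, 0.98 and 0.83. For H2-Oa r was 0.92 and rho 0.83, for H2-Ob 0.91 and 0.88, and for Ciita 0.84 and 0.83. In the same order of groups, r within a group was 0.97, 0.94, 0.86 and 0.82 for H2-Oa, 0.97, 0.93, 0.71 and 0.72 for H2-Ob, and 0.81, 0.99, 0.93 and 0.49 for Ciita. The permutation p values of r ran from 1e-05 (the smallest that 100000 resamples can give, for H2-DMb2) to 0.00013 (Ciita), with adjusted permutation p values of at most 0.00051 for r and 0.00128 for rho. Without the 2 mice farthest from the marker median r stayed at 0.96, 0.88, 0.84 and 0.82. The relation was looser for H2-Ab1, H2-Eb1, H2-DMa and Cd74, with r of 0.53 to 0.58 (adjusted permutation p of 0.0219 to 0.0318) and rho of 0.37 to 0.58 (adjusted permutation p of 0.0235 to 0.16). Without the 2 farthest mice r was 0.18 to 0.27, so the r over all 20 mice rested largely on those mice. Within Control, PZH and Model alone r was 0.82 to 0.95, 0.61 to 0.66 and 0.60 to 0.79. In Model + PZH alone r was −0.40 to −0.03. H2-Aa (r = 0.12) and H2-DMb1 (r = −0.10) showed no such relation past the threshold (adjusted permutation p = 0.726 for both). The difference between the sets in this relation was not tested. Control and PZH mice split into a few high and several low in B cell markers, so the relation there rests largely on Control 37, PZH 8 and PZH 27.

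The other marker lists are given as descriptions over the same 20 mice. For H2-DMb2, H2-Oa, H2-Ob and Ciita, r with the mean of the T cell markers was 0.86, 0.85, 0.85 and 0.72, with the dendritic cell markers 0.76, 0.78, 0.75 and 0.62, and with the macrophage and monocyte markers 0.49, 0.49, 0.60 and 0.40. For H2-Ab1, H2-Eb1, H2-DMa and Cd74, r was 0.61, 0.68, 0.71 and 0.62 with the T cell markers, 0.70, 0.77, 0.79 and 0.68 with the dendritic cell markers, and 0.67, 0.69, 0.63 and 0.67 with the macrophage and monocyte markers. Each of these 8 genes thus ran with several lists, and no list was tested against another.

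**Figure D4:**
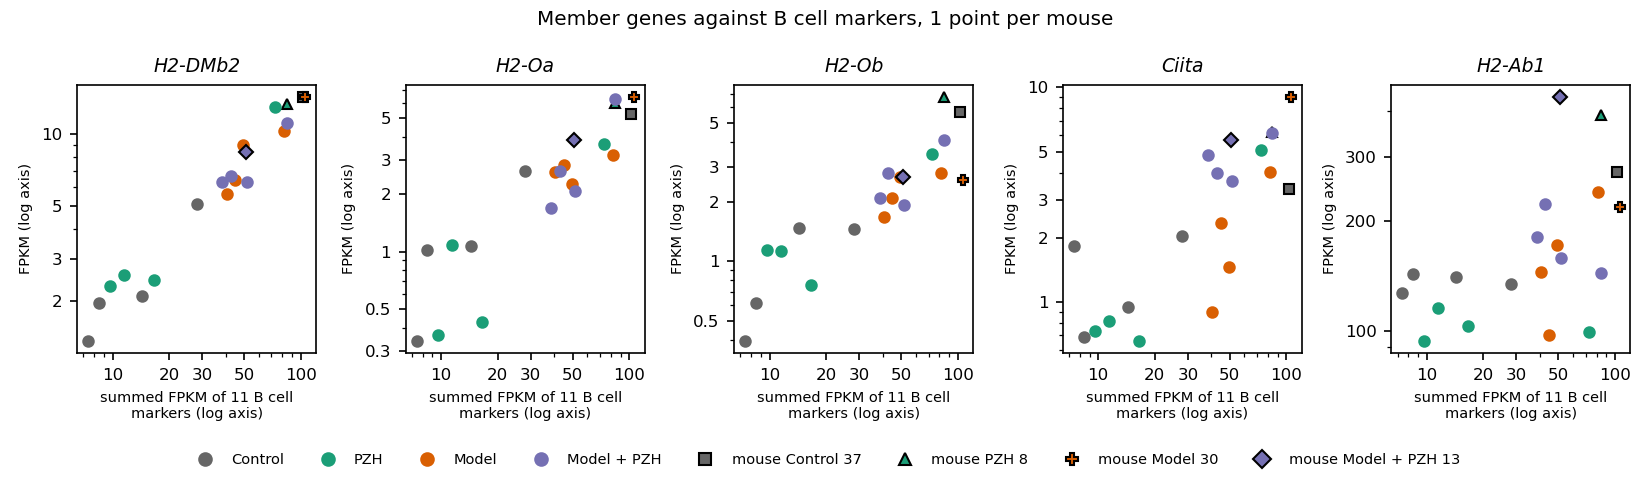
FPKM of H2-DMb2, H2-Oa, H2-Ob, Ciita and H2-Ab1 (log axis) against the summed FPKM of 11 B cell markers (log axis), with 1 point per mouse coloured by group. H2-DMb2 climbs with the markers from 1.36 FPKM at 7.42 to 14.2 FPKM at 106, whereas H2-Ab1 is highest, at 439 FPKM, in a mouse with a marker sum of 51.1.

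PZH 27 set the sets apart, and Model + PZH 13 set the H2-Ab1 set apart from the B cell markers. PZH 27 had a B cell marker sum of 73.3, H2-DMb2 at 12.95 FPKM, H2-Oa at 3.65, H2-Ob at 3.46 and Ciita at 5.10, each the second highest of the PZH group, while H2-Ab1 was at 99.3 FPKM and Cd74 at 335 FPKM, in the range of the PZH mice with few B cell transcripts. Model + PZH 13 had the highest H2-Ab1, H2-Eb1, Cd74 and H2-DMa of all 20 mice, with H2-DMa at 35.9 FPKM, but a B cell marker sum of 51.1. Its H2-DMb2 (8.36 FPKM), H2-Oa (3.85 FPKM) and Ciita (5.66 FPKM) were each the second highest of the Model + PZH group. H2-Ob, at 2.65 FPKM, was the median of that group. The same mouse had the highest Irf1 (128 FPKM), Tap1 (62.9 FPKM) and Nlrc5 (12.9 FPKM) of all mice. Control 37 and PZH 8, the other mice with high class II transcripts, had Irf1 at 63.0 and 76.1 FPKM. The part of cell makeup or interferon genes in these mice was not tested.

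Over all genes with a mean of at least 5 FPKM (8945 genes outside the set), the pattern most like the mean of H2-Aa, H2-Ab1, H2-Eb1 and Cd74 after centring on group means was that of H2-T23, a class I-like gene (r = 0.874, 20 mice). Gm2a (0.870), H2-Q4 (0.846), Atg12 (0.833), H2-K1 (0.829), Tap2 (0.814), Clec2d (0.810), H2-D1 (0.807), Tapbpl (0.806) and Synj2bp (0.804) completed the leading 10. Class I heavy chains (H2-K1, H2-D1), class I-like molecules (H2-T23, H2-Q4) and the class I peptide transporter and editor (Tap2, Tapbpl) made up 6 of these 10 genes. These genes were ranked by this likeness, and their r values are a description.

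**Figure D5:**
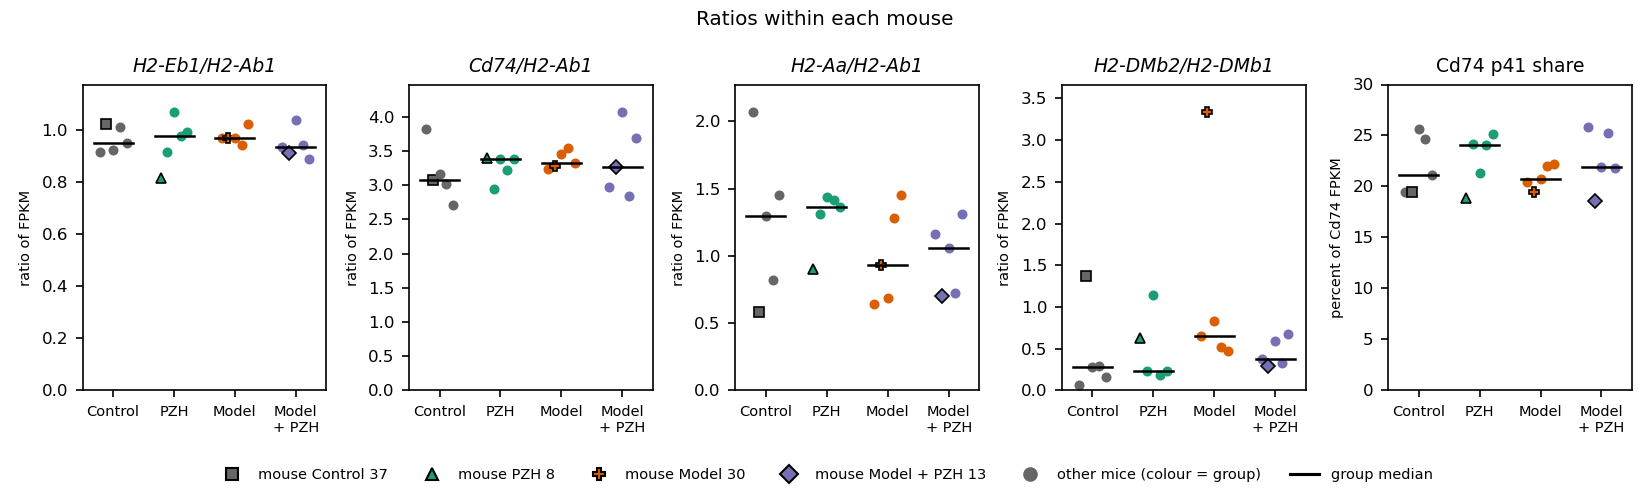
Ratios of FPKM within each mouse (4 panels) and the percent of Cd74 FPKM in the transcript of the long p41 chain (last panel), by group, with 1 point per mouse and a line at the group median. H2-Eb1/H2-Ab1 stays between 0.814 and 1.07, while H2-Aa/H2-Ab1 spans 0.581 to 2.07 and H2-DMb2/H2-DMb1 spans 0.061 to 3.33.

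Ratios within a mouse show which pairs kept step. H2-Eb1 over H2-Ab1 ran from 0.814 to 1.07 with a coefficient of variation of 6.1%, and Cd74 over H2-Ab1 from 2.71 to 4.06 with 10%. H2-Aa, whose product pairs with that of H2-Ab1, kept step far less, from 0.581 times H2-Ab1 in Control 37 to 2.07 times in Control 17, with a coefficient of variation of 33.4%. Its value was divided between the full-length transcript H2-Aa-201 (69.8% of the FPKM, 256 residues) and the shorter H2-Aa-204 (29.3%, 173 residues), and the latter was listed at 0 in 8 mice and at up to 259 FPKM in others. Estimates split so unevenly between transcripts make the H2-Aa levels less certain than those of H2-Ab1 and H2-Eb1. H2-DMb1 and H2-DMb2 are near-identical neighbours that can share reads. Their ratio ran from 0.061 in Control 17 (H2-DMb2 1.36, H2-DMb1 22.2 FPKM) to 3.33 in Model 30 (14.2 and 4.27 FPKM), and their centred levels had r = 0.00.

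The share of Cd74 carried by the long invariant chain, p41, was the last measure. The transcript Cd74-202, coding for 279 residues, includes the extra exon of p41, a segment that inhibits cathepsins, and Cd74-201, coding for 215 residues, gives the p31 form. The p41 transcript held 22.1% ± 2.42 of the Cd74 FPKM over the 20 mice, from 18.5% in Model + PZH 13 to 25.9%. It was 22.1% ± 2.91 (SD, n = 5) in Control, 22.7% ± 2.59 in PZH, 20.97% ± 1.15 in Model and 22.7% ± 2.96 in Model + PZH. No difference in mean share had a p under 0.05 in a two-sided exact permutation test of 5 mice against 5, whose smallest possible p is 0.00794. Model against Control gave p = 0.437, PZH against Control p = 0.762 and Model + PZH against Model p = 0.27, or 0.655, 0.762 and 0.655 adjusted over these 3 exact tests. The 3 mice with the highest Cd74 had shares of 18.5% (Model + PZH 13), 18.8% (PZH 8) and 19.5% (Control 37). Control 17 (19.46%) and Model 30 (19.45%) had shares as low as Control 37 with less Cd74, at 486 and 715 FPKM. A relation between the share and the Cd74 level was not tested.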

How the data were processed

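Ribosomal RNA-depleted, poly(A)-selected colon RNA of 20 mice was sequenced. Per the labels and the paper's methods, the authors aligned clean reads to mm10 with HISAT2, assembled and quantified transcripts with StringTie, and deposited FPKM per transcript for each mouse. Each file had 118434 rows. Rows with Ensembl identifiers (96032 found in GENCODE M21, GRCm38) were summed per gene. Assembled transcripts without a gene name held 12.1% to 14.9% of the FPKM, and reads given to them are missing from the genes. Depth was estimated from the steps of low FPKM as 15.4 to 19.5 M fragments, but only 44.4% to 50.3% of low values lay within 0.1 fragment of a whole number, so fragment numbers are approximate and no count model was run.

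Genes reaching 0.5 FPKM in 5 or more of the 10 mice compared were tested with limma 3.58.1 (R 4.3.3, trended eBayes) on log2(FPKM + 1), with Benjamini-Hochberg adjustment over all genes tested, and the interaction was fitted on all 20 mice. Relations over mice used permutation within groups (100000 resamples). The members and lists were chosen with earlier results of these data known. Named genes were the 10 members, list genes past an adjusted p of 0.05 (values for at most 4 per list and comparison), list genes needed for a count, and the 10 genes most like the abundant members. Irf1, Tap1 and the transcripts described were named after their values were seen. Some list genes are not reported here by name. Groups came from the sample labels. The labels name no batch. Alternatives were another pseudocount, other filters, median-of-ratios scaling, all 20 mice in one model, sample weights, protein-coding transcripts and leaving out each mouse.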

Additional observations from a re-analysis of the deposited data

Results flagged for a closer look

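In 17 of 44 group values of 5 mice (the 10 genes and the p41 share in 4 groups), 1 mouse lay farther from the others than Dixon's 95% critical value of 0.71 allows, where chance gives about 1 in 20, or 2.2 here. These values are not independent, since the same mice recur across related genes. The rule was applied to FPKM without logs, whereas the rate of 1 in 20 holds for normally distributed values. In all 17 the outlying mouse lay above the others. PZH 8 was the outlying mouse for H2-Aa (351 FPKM, the other PZH mice 133 to 157), H2-Ab1 (391 FPKM, the others 93.7 to 115), H2-Eb1 (318 FPKM, the others 91.6 to 114), H2-DMa (18.8 FPKM, the others 5.01 to 7.74), H2-DMb1 (21.1 FPKM, the others 10.8 to 12.7) and Cd74 (1324 FPKM, the others 301 to 389). Control 37 was the outlying mouse for H2-Ab1 (273 FPKM), H2-Eb1 (279 FPKM), H2-DMa (18.7 FPKM), H2-DMb2 (14.3 FPKM, the others 1.36 to 5.09), H2-Ob (5.68 FPKM, the others 0.396 to 1.46) and Cd74 (840.1 FPKM, the others 390 to 486). Model + PZH 13 was the outlying mouse for H2-Ab1 (439 FPKM), H2-Eb1 (399.8 FPKM), H2-DMa (35.9 FPKM) and Cd74 (1434 FPKM, the others 537 to 634). In the Model group H2-Oa was outlying in Model 30, at 6.47 FPKM against 2.26 to 3.21 FPKM. Control 37, PZH 8 and Model 30 had the highest B cell marker sum of their group (103, 84.4 and 106 summed FPKM), and Model + PZH 13 had 51.1, in the middle of its group. Whether these mice differed in health, sampling site or handling was not tested.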

How the results depend on the processing

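In Model + PZH against Control, the count of 1 gene past the threshold (Ciita) became 0 with a pseudocount of 0.1, with no filter, with at least 1 FPKM in every mouse (7 genes left), with median-of-ratios scaling, with all 20 mice in one model and with protein-coding transcripts only. The limma adjusted p of Ciita there was 0.0544 to 0.117 where it was tested, and 0.027 with sample weights. The count ran from 0 to 2 when each mouse was left out, and in Model against Control from 0 to 3 (3 without Control 37). The other comparisons kept a count of 0 under every alternative.

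Signs changed near 0. Median-of-ratios scaling gave log2 fold changes of −0.02 (H2-Ab1), −0.01 (H2-Eb1) and −0.01 (H2-DMa) in Model against Control, and −0.02 (H2-DMb1) and −0.01 (H2-Oa) in PZH against Control. There H2-Oa was −0.07 with a pseudocount of 0.1 and −0.12 with protein-coding transcripts, and H2-DMb1 was −0.03 with sample weights. Leaving out each mouse in turn, Model against Control ran from −0.33 to 0.17 (H2-Aa), −0.04 to 0.29 (H2-Ab1), −0.02 to 0.33 (H2-Eb1) and −0.02 to 0.34 (H2-DMa). PZH against Control ran from −0.32 to 0.08 (H2-Aa), −0.18 to 0.18 (H2-DMb1), −0.34 to 0.32 (H2-Oa), −0.01 to 0.68 (H2-Ob), −0.57 to 0.02 (Cd74) and −0.14 to 0.39 (Ciita). Model + PZH against Model ran from −0.30 to 0.12 (H2-Oa), and the interaction from −0.40 to 0.26 (H2-Oa) and −0.55 to 0.14 (H2-Ob). The difference in p41 share ran from −0.05 to 1.57 percentage points in PZH against Control. Counting protein-coding rows only left it as it was, since both Cd74 rows code for protein. The cause of these changes was not tested.

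No paired analysis was possible because no 2 mice of different groups share a number. Values of H2-Oa and H2-Ob rest on few fragments in the lowest mice, and the FPKM carry no counting error. H2-DMb1 and H2-DMb2, and the H2-Aa transcripts, depend on how reads were divided.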
